A study of Homo sapiens with 8 samples.

Results

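The 9 genes described here encode the monoamine oxidases (MAOA, MAOB) and the core enzymes that make, break down and sense polyamines (ODC1, AMD1, SRM, SAT1, SMOX, PAOX, OAZ1). They were picked by gene symbol out of 19158 genes measured, with their response to dexamethasone already known from earlier work on these data. For that reason their difference between treated and untreated cells is given as a description and without a p-value. The cells were A549, an established epithelial line from a human lung adenocarcinoma, with the genotype labelled WT and grown in DMEM with serum. There were 4 untreated libraries (labelled NT) and 4 from cells that received 1 µM dexamethasone, a synthetic glucocorticoid, for 48 h. Each library came from its own well, replicates were numbered 1, 3, 4 and 5 in each group, and all 8 had the same batch label. The labels name no vehicle for the untreated wells. The wells are cultures of a single cell line, so the errors measure the spread between wells and not between donors. Levels are the deposited values, which the labels call counts and which were read as FPKM from the values themselves, that is fragment numbers divided by transcript length and by library total, so levels of different genes can be set side by side.

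Monoamine oxidases are flavin enzymes of the outer mitochondrial membrane that remove the amino group from serotonin, noradrenaline, dopamine and dietary amines, releasing an aldehyde, ammonia and hydrogen peroxide. Polyamines (putrescine, spermidine and spermine) are small positively charged molecules that growing cells need for translation and nucleic acid function. Their amount is kept in balance by a synthesis arm that starts at ornithine decarboxylase, a catabolic arm that starts with acetylation or direct oxidation, and the antizyme, which marks ornithine decarboxylase for destruction when polyamines are plentiful. Several of these proteins are controlled at translation or by rapid turnover, so a transcript level is not a measure of enzyme activity. In a bulk sample, fewer expressing cells and less RNA per cell cannot be told apart.

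Known glucocorticoid targets followed the labels. FKBP5, TSC22D3 and PER1, classical glucocorticoid-induced genes, had ratios of mean FPKM of 23.4, 16.8 and 4.70 in dexamethasone over untreated cells, and none of them overlapped between the groups. Of 5 epithelial markers, 4 were at 1 FPKM or more in every library, and EPCAM was below that level in all 8. Summed FPKM of the epithelial list was 1910 to 3460 in untreated and 2580 to 3310 in dexamethasone libraries. Its genes did not move together. Mean CDH1 went from 6.8 to 18.2 FPKM and mean KRT19 from 156 to 54.7 FPKM, while KRT8, KRT18 and EPCAM overlapped between the groups. PTPRC, CD3E and COL1A2, defining markers of leukocytes and fibroblasts, were listed at 0 in all 8 libraries. The summed leukocyte markers (4 of 5 found) were 5.78 to 7.52 FPKM in untreated and 3.07 to 3.75 in dexamethasone libraries, all of it from CD14 and CD68. The corresponding sums were 1.87 to 2.39 and 0.604 to 0.788 for 5 fibroblast markers, 6.55 to 8.08 and 3.80 to 4.37 for 5 neuron and neuroendocrine markers, and at most 0.176 for 3 endothelial markers. Of the fibroblast markers, COL1A1 was at 1.79 to 2.25 FPKM in untreated and 0.274 to 0.437 in dexamethasone libraries. DCN went the other way, from 0 in untreated to 0.178 to 0.355 FPKM in dexamethasone libraries. COL3A1 and PDGFRA were at most 0.134 FPKM. The part of these markers in the results below was not tested. In a limma test with Benjamini-Hochberg adjustment, 3280 of 12161 genes passed an adjusted p of 0.05, 1476 higher and 1804 lower after dexamethasone. The 2 libraries numbered 5 stood apart from the others of their group, and 5513 genes passed without them.

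MAOA was below 1 FPKM in every untreated library and at 36.4 FPKM or more in every dexamethasone library, while its neighbour and paralogue MAOB stayed below 0.5 FPKM in every library. MAOA, which prefers serotonin and noradrenaline, lies at chrX:43654907-43746824 on the plus strand (GRCh38, as given with the values). MAOB, which prefers phenylethylamine and benzylamine, lies at chrX:43766611-43882447 on the minus strand. Their 3' ends face each other with 19786 bases between the annotated genes, and no other GENCODE v44 gene overlaps either of them. The 250 bases upstream of each RefSeq start (build GRCh38.p14) are shown because these neighbours were at levels far apart in treated cells, and capitals mark every GC box, GGGCGG on either strand, the core of the Sp1 and Kruppel-like factor site.
MAOA, chrX:43656049-43656298, plus strand: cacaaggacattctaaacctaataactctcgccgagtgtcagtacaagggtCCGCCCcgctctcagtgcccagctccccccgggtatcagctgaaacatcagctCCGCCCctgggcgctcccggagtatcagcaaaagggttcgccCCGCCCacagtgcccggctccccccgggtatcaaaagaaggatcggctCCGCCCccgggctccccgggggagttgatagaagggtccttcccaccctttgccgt
MAOB, chrX:43882451-43882700, minus strand: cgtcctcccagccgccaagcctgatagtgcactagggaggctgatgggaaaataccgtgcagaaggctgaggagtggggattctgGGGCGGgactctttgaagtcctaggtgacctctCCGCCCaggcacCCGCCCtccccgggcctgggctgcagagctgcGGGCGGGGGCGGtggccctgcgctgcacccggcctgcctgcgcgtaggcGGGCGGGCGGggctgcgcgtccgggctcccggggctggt
The MAOA window held 4 GC boxes, 17 CpG dinucleotides and 63.2% G and C. The MAOB window held 7 GC boxes, some of them adjoining or overlapping, with 21 CpG dinucleotides and 72.0% G and C. A GC box was present in 42.3% of 27305 RefSeq windows of the same length, 1 per gene symbol. The window of MAOA lies inside the gene span given with the values, whose start is farther upstream. Neither window held the palindromic glucocorticoid response element, AGAACA followed after 3 free bases by TGTTCT (in 0.00366% of windows), or AGAACA alone on either strand (in 12.4%), which says only that those letters are not in these 250 bases.

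Untreated replicates 1, 3, 4 and 5 had MAOA levels of 0.671, 0.508, 0.822 and 0.310 FPKM. The dexamethasone libraries numbered 1, 3, 4 and 5 had 41.6, 39.5, 39.8 and 36.4 FPKM. Every treated library was thus far above every untreated library, and the treated values were tightly grouped. The means were 0.578 ± 0.220 and 39.3 ± 2.14 FPKM (SD, n = 4 each), a ratio of 68.0. On the log2(FPKM + 1) scale used for the fit, which understates the change of low genes, the log2 fold change was 4.68 (SE 0.121), and with a pseudocount of 0.1 it was 5.92. Among all 12161 genes tested this log2 fold change had rank 4 from the top. From the depth estimated below, the untreated values stand on roughly 31 to 82 fragments per library and the treated values on 4069 to 4236.

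MAOB had 0.190, 0.031, 0.0147 and 0.125 FPKM in the untreated libraries (order 1, 3, 4, 5 throughout). The dexamethasone libraries had 0.243, 0.350, 0.272 and 0.409 FPKM. The treated libraries were all above the untreated libraries, but the values correspond to an estimated 1 to 12 fragments in untreated and 16 to 30 fragments in treated libraries. Untreated replicates 3 and 4 lay below the FPKM that 3 fragments would give, 0.0466 and 0.0461. MAOB therefore did not pass the filter on low values (0.5 FPKM in at least 4 libraries), and no fold is given.

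**Figure D1:**
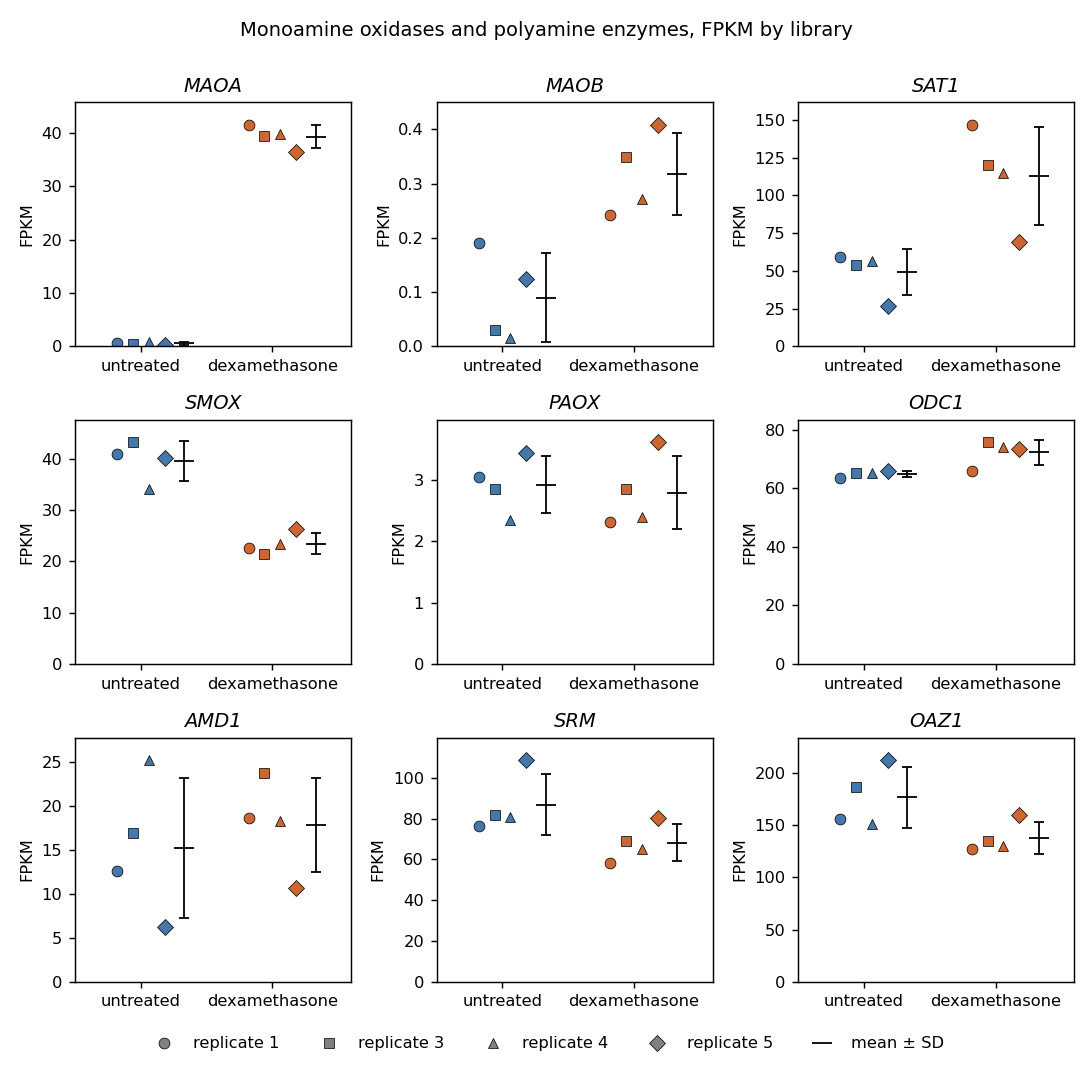
FPKM of the 9 genes in each library (y axes from 0, each gene on its own scale; symbols give the replicate number, the bar at the side of each group the mean ± SD of 4 libraries). MAOA is at 0.310 to 0.822 in untreated and 36.4 to 41.6 in dexamethasone libraries, and SAT1 is higher and SMOX lower in all treated libraries. Replicate 5 lies at an edge of both groups for MAOA, AMD1, SAT1, PAOX, SRM and OAZ1.

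The catabolic arm split: SAT1 was higher and SMOX lower in all treated libraries, and PAOX overlapped between the groups. SAT1 (chrX:23783173-23786226, plus strand) encodes the acetyltransferase that tags spermidine and spermine for export or oxidation and is the inducible step of polyamine breakdown. Untreated libraries had 59.5, 54.2, 56.9 and 27.1 FPKM, and treated libraries had 147, 120, 115 and 69.2 FPKM. The groups did not overlap, although replicate 5 was the lowest library of each. The means were 49.4 ± 15.0 and 113 ± 32.3 FPKM (SD, n = 4 each), with a log2 fold change of 1.17 (SE 0.235). Without both libraries numbered 5 it was 1.19 with an SE of 0.106.

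SMOX (chr20:4120980-4187747, plus strand) encodes spermine oxidase, which turns spermine directly into spermidine and releases hydrogen peroxide. Its levels were 40.9, 43.2, 34.1 and 40.2 FPKM without and 22.6, 21.4, 23.4 and 26.3 FPKM with dexamethasone. All 4 treated libraries were below all 4 untreated ones. The means were 39.6 ± 3.85 and 23.4 ± 2.10 FPKM (SD, n = 4 each), with a log2 fold change of -0.75 (SE 0.156). After subtracting each library's trend on the GC content of genes, the value was -0.49 (SE 0.0920), a smaller difference in the same direction.

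PAOX (chr10:133379234-133391694, plus strand) encodes the peroxisomal oxidase that acts on the polyamines SAT1 has acetylated. It had 3.05, 2.85, 2.34 and 3.44 FPKM in untreated and 2.31, 2.85, 2.39 and 3.61 FPKM in treated libraries. The treated range enclosed the untreated range, and the log2 fold change was -0.07 (SE 0.185), or 0.20 (SE 0.0888) with the GC trend removed. Its mean was the lowest of the 7 polyamine genes in each group. Set against each other within a library, SAT1 over SMOX was 0.673 to 1.66 in untreated and 2.63 to 6.52 in dexamethasone libraries. This ratio could not overlap, because SAT1 alone was higher and SMOX alone lower in every treated library.

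The groups overlapped for all 3 synthesis genes. ODC1 (chr2:10439968-10448504, minus strand), ornithine decarboxylase, makes putrescine and is the entry step. Untreated libraries were at 63.6, 65.3, 65.4 and 65.9 FPKM, the narrowest spread of the 9 genes relative to the mean, and treated libraries at 65.9, 75.8, 74.1 and 73.3 FPKM. The lowest treated library fell within the untreated range, and the log2 fold change was 0.13 (SE 0.138).

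AMD1 (chr6:110874770-110895713, plus strand) encodes S-adenosylmethionine decarboxylase, the source of the aminopropyl groups. It had 12.6, 16.9, 25.3 and 6.26 FPKM in untreated wells and 18.6, 23.8, 18.3 and 10.7 FPKM in treated wells. Its spread between wells was the widest of the polyamine genes relative to its mean and larger than its difference between groups, with a log2 fold change of 0.30 (SE 0.315). With the GC trend removed the value was -0.03 (SE 0.200).

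SRM (chr1:11054584-11060024, minus strand), spermidine synthase, joins the products of ODC1 and AMD1. Its untreated levels were 76.2, 82.0, 80.8 and 109 FPKM and its treated levels 58.5, 69.3, 65.0 and 80.4 FPKM. The groups overlapped only through dexamethasone replicate 5. The log2 fold change was -0.35 (SE 0.215), and it moved to -0.14 without untreated replicate 5 and to -0.08 (SE 0.0911) with the GC trend removed. Without both libraries numbered 5 it was -0.26 (SE 0.0869).

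OAZ1 (chr19:2269509-2273490, plus strand), antizyme 1, is translated through a frameshift that polyamines promote, and its protein delivers ornithine decarboxylase to the proteasome. By group mean it was the most abundant transcript of the 9, although SAT1 was above it in dexamethasone replicate 1 (147 FPKM). The OAZ1 levels were 156, 187, 151 and 213 FPKM in untreated and 127, 135, 130 and 160 FPKM in treated libraries. Dexamethasone replicate 5 was again the only treated library inside the untreated range. The log2 fold change was -0.36 (SE 0.208), -0.18 (SE 0.130) with the GC trend removed and -0.16 without untreated replicate 5. Without both libraries numbered 5 it was -0.28 (SE 0.0935). Within each library, ODC1 over OAZ1 was 0.408, 0.349, 0.434 and 0.310 in the untreated and 0.519, 0.562, 0.569 and 0.458 in the dexamethasone replicates, so this ratio did not overlap between the groups, whereas each gene alone did.

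Taking the 9 genes as a set, 8 passed the filter, and 3 of these (MAOA, SAT1 and SMOX) had a limma adjusted p under 0.05, where 27.0% of all tested genes did (12.1% higher and 14.8% lower). MAOA passed the filter with 0.5 FPKM or more in all dexamethasone libraries and in untreated replicates 1, 3 and 4. Groups did not overlap for 4 of the 9, MAOB among them, or 3 of the 8 tested, against 31.5% of all tested genes (12.3% higher and 19.2% lower). Nothing is read from these counts, because the genes were chosen with this comparison known. Without both libraries numbered 5 the count was 5 of 8, where 45.1% of all tested genes were called, with SRM and OAZ1 added as lower genes, at -0.26 (SE 0.0869) and -0.28 (SE 0.0935).

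**Figure D2:**
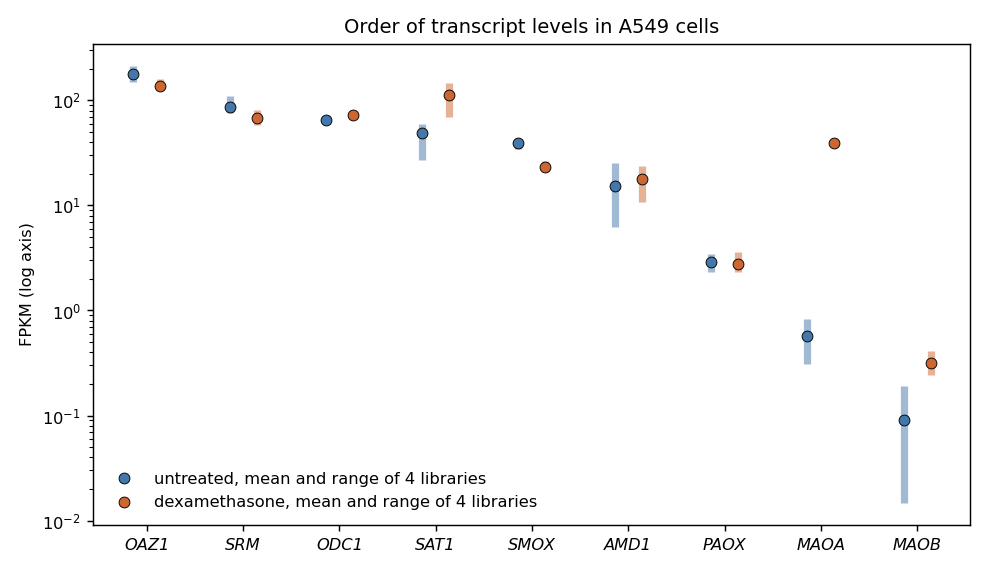
Mean and range of FPKM over 4 libraries for the 9 genes (log axis), ordered by the untreated mean, with untreated in blue and dexamethasone in orange. MAOA goes from the eighth to the fifth place in the order of levels, and SAT1 from the fourth to the second.

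In untreated cells the order of mean levels per length was OAZ1 (177 FPKM), SRM (87.0), ODC1 (65.1), SAT1 (49.4), SMOX (39.6), AMD1 (15.3), PAOX (2.92), MAOA (0.578) and MAOB (0.0902). Among neighbours in this order, the ranges of SAT1 and SMOX overlapped, and all other neighbours were separated. After dexamethasone the order was OAZ1 (138 FPKM), SAT1 (113), ODC1 (72.3), SRM (68.3), MAOA (39.3), SMOX (23.4), AMD1 (17.8), PAOX (2.79) and MAOB (0.319). The ranges of OAZ1 and SAT1, of SAT1 and ODC1, of ODC1 and SRM, and of SMOX and AMD1 overlapped there. MAOA, which lay below every polyamine enzyme in untreated cells, lay between SRM and SMOX in treated cells with no overlap to either.

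In the libraries numbered 5, the members' levels relative to the other replicates differed with their base composition. AMD1, MAOA and SAT1, whose canonical transcripts hold 37.9%, 42.8% and 43.9% G and C, were at 0.342, 0.465 and 0.476 times the mean of the other replicates in untreated replicate 5. In dexamethasone replicate 5 they were at 0.530, 0.904 and 0.544 times that mean. OAZ1, PAOX and SRM, with 54.0%, 63.0% and 63.7% G and C, were at 1.29, 1.25 and 1.36 times in untreated and at 1.22, 1.44 and 1.25 times in dexamethasone replicate 5. ODC1 (49.4%) stood at 1.02 times in both. SMOX (60.7%) was at 1.02 and 1.17 times, and MAOB (48.5%, few fragments) at 1.59 and 1.42 times. This is a description of 9 genes in 2 libraries, and the part of base composition in it was not tested.

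**Figure D3:**
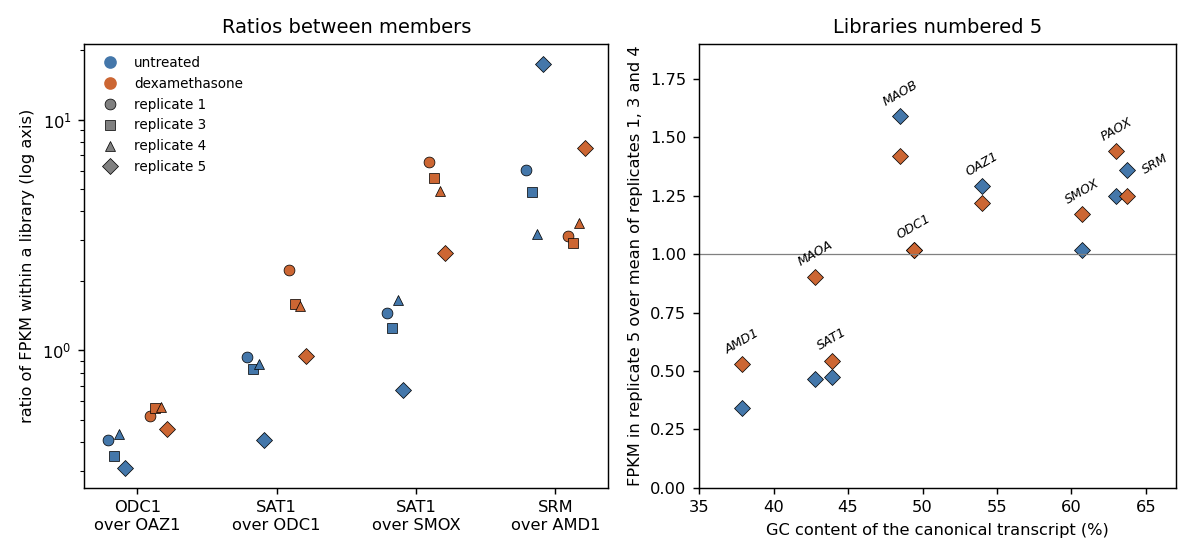
Left, ratios of FPKM between members within each library (log axis; blue untreated, orange dexamethasone, symbols by replicate number); right, FPKM in replicate 5 over the mean of replicates 1, 3 and 4 of the same group, against GC content of the canonical transcript. ODC1 over OAZ1, SAT1 over ODC1 and SAT1 over SMOX do not overlap between groups, and SRM over AMD1 does (3.19 to 17.4 and 2.92 to 7.51). SAT1 over ODC1 is barely separated, at 0.935 in untreated replicate 1 and 0.943 in dexamethasone replicate 5. The separation of SAT1 over SMOX follows from that of each gene alone. The members with 37.9% to 43.9% GC lie below 1 in both libraries numbered 5.

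Promoter windows of 7 of the 9 genes were matched in RefSeq by symbol, and those of SMOX and PAOX were not used. The SAT1 window (chrX:23782923-23783172, plus strand) held no GC box. The other matched genes, ODC1, AMD1, SRM and OAZ1, held 1 to 6 in each of their windows. The E-box CACGTG, the site of MYC-type factors and present in 6.49% of windows, occurred once in the SRM window and once in 1 of the 2 ODC1 windows. No matched member held the glucocorticoid response element, its single arm AGAACA, the TATA box letters TATAAA (in 11.1% of windows) or the cyclic AMP response element TGACGTCA (in 1.77%). All motifs were searched on both strands.

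The profile most like that of MAOA over the 8 libraries, by the root mean square difference of centred log2(FPKM + 1) values, belonged to SCNN1B (0.181), CDH16 (0.197), SAA1 (0.245), BEST2 (0.267) and DNAJC15 (0.319). SCNN1B, a subunit of the epithelial sodium channel, had means of 0.164 ± 0.102 FPKM without and 31.2 ± 3.68 FPKM with treatment (SD over 4 libraries each). The kidney-type cadherin gene CDH16 had 0.396 ± 0.121 and 41.3 ± 4.13 FPKM. Acute-phase SAA1, which can share reads with SAA2, had 0.193, 0.0294, 0 and 0 FPKM without and 19.6 to 28.7 FPKM with treatment. The anion channel gene BEST2 was at 0.0181, 0, 0 and 0.0815 FPKM in the untreated replicates and at 16.2 to 20.3 FPKM after treatment. DNAJC15, a mitochondrial co-chaperone, was at 0.00689 to 0.0406 FPKM and at 14.6 to 20.8 FPKM. All 5 passed the filter through the dexamethasone libraries, with CDH16 also at 0.5 FPKM or more in 1 untreated library. The likeness is a description over 8 libraries that share the treatment.

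**Figure D4:**
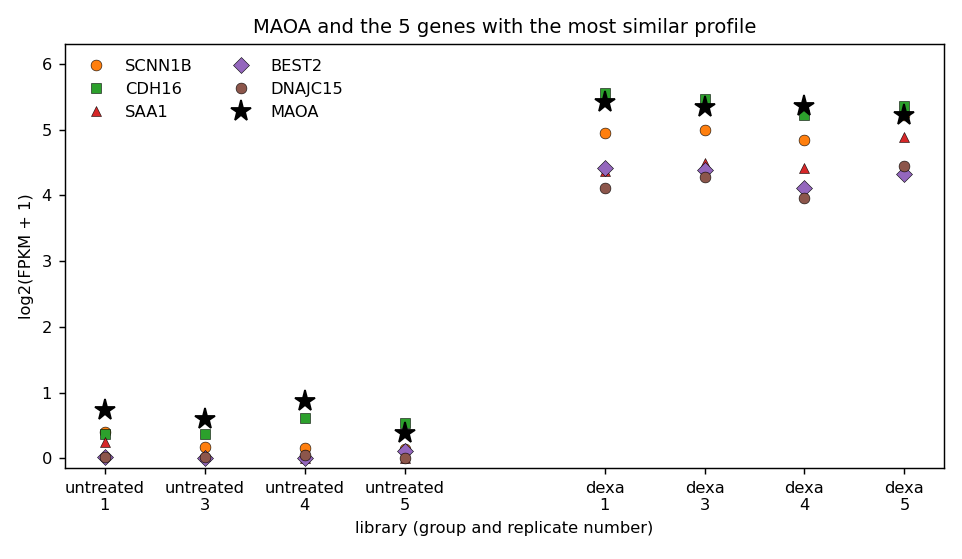
log2(FPKM + 1) as deposited, for MAOA (stars) and the 5 genes of most similar profile in each library (x axis: group and replicate number). All 6 lie below 1 in the untreated libraries and at 14.6 FPKM or more in the dexamethasone libraries.

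The rest of the polyamine pathway was tested as a list of 27 symbols that are not members, of which ARG1 was not analysed here and AOC1 and ATP13A4 were too low to test. Of 24 tested genes, 4 fell, none rose and 20 did not pass, where 27.0% of all tested genes were called and 14.8% were lower. The count called is thus below the 27.0% over all genes, and the count of lower genes is near the 14.8%. No gene of the list was called higher, where 12.1% of all tested genes were. The median log2 fold change was -0.12, against 0.0026 over all genes tested. ARG2 passed the filter only through the untreated libraries, so it had to differ. The genes that fell act in arginine use, amino acid transport and salvage. ARG2, the mitochondrial arginase that yields ornithine, fell from 0.809 ± 0.166 to 0.290 ± 0.0458 FPKM (SD over 4 libraries each; log2 fold change -0.49, SE 0.0923, limma adjusted p = 0.00357). AGMAT, an agmatinase-type enzyme, fell from 4.06 ± 0.266 to 2.39 ± 0.254 FPKM (log2 fold change -0.59, SE 0.12, limma adjusted p = 0.00553). SLC3A2, the heavy chain of amino acid transporters also linked to polyamine export, fell from 256 ± 20.4 to 161 ± 15.1 FPKM (-0.68, SE 0.18, limma adjusted p = 0.02). MTAP, which recycles the methylthioadenosine left by SRM and SMS, fell from 3.82 ± 0.823 to 2.2 ± 0.740 FPKM (-0.61, SE 0.162, limma adjusted p = 0.0208).

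The remaining steps showed no call, and the examples were picked after their values were seen. Spermine synthase SMS, the step after SRM, had a log2 fold change of -0.05 (SE 0.135), and the 4 other antizymes and antizyme inhibitors (OAZ2, OAZ3, AZIN1 and AZIN2) lay between -0.32 and 0.05. SAT2, a relative of SAT1, spread from 13.1 to 42.0 FPKM in untreated cells and had a value of -0.23 (SE 0.406). EIF5A, the translation factor that carries hypusine made from spermidine, was at -0.31 (SE 0.231). DOHH of the hypusine step and SLC47A1 of transport were lower with no overlap between the groups but were not called. Their log2 fold changes were -0.557 and -0.495 (limma adjusted p = 0.0618 and 0.0799). Groups did not overlap for 5 of the 24 tested genes of the list, against 31.5% of all tested genes. The call of SLC3A2 was lost without dexamethasone replicate 1, 3 or 4 (-0.60, -0.67 and -0.65), and that of MTAP without untreated replicate 1 or dexamethasone replicate 3 or 4 (-0.54, -0.60 and -0.57) and without scaling (-0.60). The count of 4 became 2 without dexamethasone replicate 3 or 4, and 8 (2 higher, 6 lower) without both libraries numbered 5, where 45.1% of all genes were called.

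The monoamine list held 29 symbols, and only 15 were high enough to test. TH, TPH2, DBH, SLC6A2 and SLC18A1, which serve the synthesis or transport of monoamines, were listed at 0 in all 8 libraries. Of the 15, 4 rose, 1 fell and 10 did not pass, beside the 27.0% called over all genes, with a median log2 fold change of 0.15. DDC, the decarboxylase that forms dopamine and serotonin from their amino acid precursors, had 1.67, 1.34, 1.47 and 1.31 FPKM without and 5.94, 5.48, 6.64 and 5.20 FPKM with dexamethasone. It rose in every library beyond the untreated range (log2 fold change 1.46, SE 0.114, limma adjusted p = 1.67e-05). ALDH2, the mitochondrial aldehyde dehydrogenase that clears aldehydes of the kind monoamine oxidases release, rose from 8.36 ± 0.367 to 18.5 ± 5.66 FPKM (1.01, SE 0.175, limma adjusted p = 0.00243). HNMT, which inactivates histamine, rose from 0.309 ± 0.0724 to 1.34 ± 0.801 FPKM (0.78, SE 0.182, limma adjusted p = 0.0113). It passed the filter only through the dexamethasone libraries, so it had to differ.

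SULT1A1, a sulfotransferase of phenols and catechols, rose from 1.74 ± 0.431 to 3.77 ± 0.680 FPKM (0.79, SE 0.188, limma adjusted p = 0.0122), and its value is uncertain because near-identical copies and overlapping genes can share its reads. AKR1B1, aldose reductase, fell from 1310 ± 464 to 649 ± 122 FPKM (-0.98, SE 0.309, limma adjusted p = 0.0416). The most abundant transporter of the list, SLC22A3, which takes up monoamines with low affinity, picked after its values were seen, was at 15.7 to 20 FPKM in untreated and 20.2 to 22.4 FPKM in treated cells and was not called (0.18, SE 0.0998, limma adjusted p = 0.212). The call of HNMT was lost with the GC trend removed, at 0.37. That of AKR1B1 was lost without untreated replicate 1 or 4 (-1.06 and -1.08), without dexamethasone replicate 1, 3 or 4 (-0.89, -0.94 and -0.94) and without the filter (-0.98), and its value was -0.65 without untreated replicate 5.

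A further list held catalase, peroxidases and peroxiredoxins, which remove the hydrogen peroxide that the monoamine and polyamine oxidases release, and superoxide dismutases, which produce it. The 16 symbols gave 17 rows because SOD2 has 2 gene identifiers, and 16 rows were tested, with 3 higher, 2 lower, 11 not called and a median log2 fold change of 0.23. These 5 of 16 are close to the 27.0% called over all genes. CAT, catalase, rose from 12.2 ± 2.51 to 23.4 ± 2.31 FPKM (0.89, SE 0.12, limma adjusted p = 0.00051). PRDX6, a peroxiredoxin that also reduces lipid peroxides, rose from 113 ± 3.25 to 223 ± 9.59 FPKM (0.95, SE 0.146, limma adjusted p = 0.0011). GPX2, a glutathione peroxidase of epithelia, fell from 186 ± 16.4 to 86.4 ± 5.66 FPKM (-1.11, SE 0.167, limma adjusted p = 0.001).

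PRDX1, the most abundant peroxiredoxin here, fell from 895 ± 45.2 to 657 ± 17.7 FPKM (-0.46, SE 0.151, limma adjusted p = 0.0486). The SOD2 row ENSG00000285441 rose from 0.554 ± 0.442 to 1.32 ± 0.413 FPKM (0.60, SE 0.18, limma adjusted p = 0.0349). It passed the filter through the dexamethasone libraries, and of the untreated libraries only replicate 4 (1.21 FPKM) reached 0.5 FPKM. Its entry into the test and the count thus depended on the group where it was high. The more abundant SOD2 row ENSG00000112096 was not called (0.40, SE 0.278, limma adjusted p = 0.312). The call of PRDX1 was lost without any of the 4 untreated libraries (-0.44, -0.51, -0.48 and -0.37 without replicates 1, 3, 4 and 5) and without dexamethasone replicate 1, 3 or 4 (-0.43, -0.45 and -0.42). The call of SOD2 ENSG00000285441 was lost without untreated replicate 1, 3 or 5 (0.57, 0.52 and 0.56), without dexamethasone replicate 3, 4 or 5 (0.63, 0.50 and 0.60) and without both libraries numbered 5 (0.56), and also without the filter or without scaling (0.60 each). With a pseudocount of 0.1 its value was 1.27. The list's count of 5 became 3 without untreated replicate 1 or 3 or dexamethasone replicate 3 or 4, and 8 both without the libraries numbered 5 and with the GC trend removed, where 45.1% and 37.2% of all genes were called.

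Among 7 factors described as acting on the MAOA promoter, 1 rose, 2 fell and 4 did not pass, beside 27.0% called over all genes, with a median log2 fold change of -0.10. FOXO1, a forkhead factor held in check by insulin signalling, had 1.52, 1.78, 1.81 and 0.922 FPKM without and 10.1, 7.6, 7.07 and 6.47 FPKM with dexamethasone. It rose with no overlap (log2 fold change 1.81, SE 0.145, limma adjusted p = 2.08e-05). KLF11, a Kruppel-like factor that binds GC-rich sites, fell from 2.94 ± 0.686 to 1.83 ± 0.215 FPKM (-0.47, SE 0.116, limma adjusted p = 0.0148), and its call was lost without scaling (-0.46). CDCA7L, also called R1, fell from 11.3 ± 0.99 to 7.85 ± 0.296 FPKM (-0.48, SE 0.123, limma adjusted p = 0.0172), and its call was lost without dexamethasone replicate 1, 3 or 4 (-0.47, -0.45 and -0.46). SP1, SIRT1 and NR3C1 had log2 fold changes of -0.13, -0.10 and 0.12 with limma adjusted p of 0.428, 0.772 and 0.820.

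The relatives of the monoamine oxidases among flavin amine oxidases gave 1 call, higher, in 3 tested genes, beside 27.0% over all genes, with a median log2 fold change of 0.15. KDM1B, a histone demethylase, rose from 3.78 ± 0.918 to 5.35 ± 0.734 FPKM (0.42, SE 0.132, limma adjusted p = 0.0417). KDM1A, the other histone demethylase of this family, was at 29.9 to 35.2 and 31.3 to 34.6 FPKM (-0.02, SE 0.117, limma adjusted p = 0.924). RNLS was at 0.15 (SE 0.129, limma adjusted p = 0.414), and IL4I1 was too low to test. The call of KDM1B was lost without untreated replicate 1 or 4 (0.42 and 0.46), without dexamethasone replicate 1, 3 or 4 (0.40, 0.39 and 0.46) and without scaling (0.43).

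**Figure D5:**
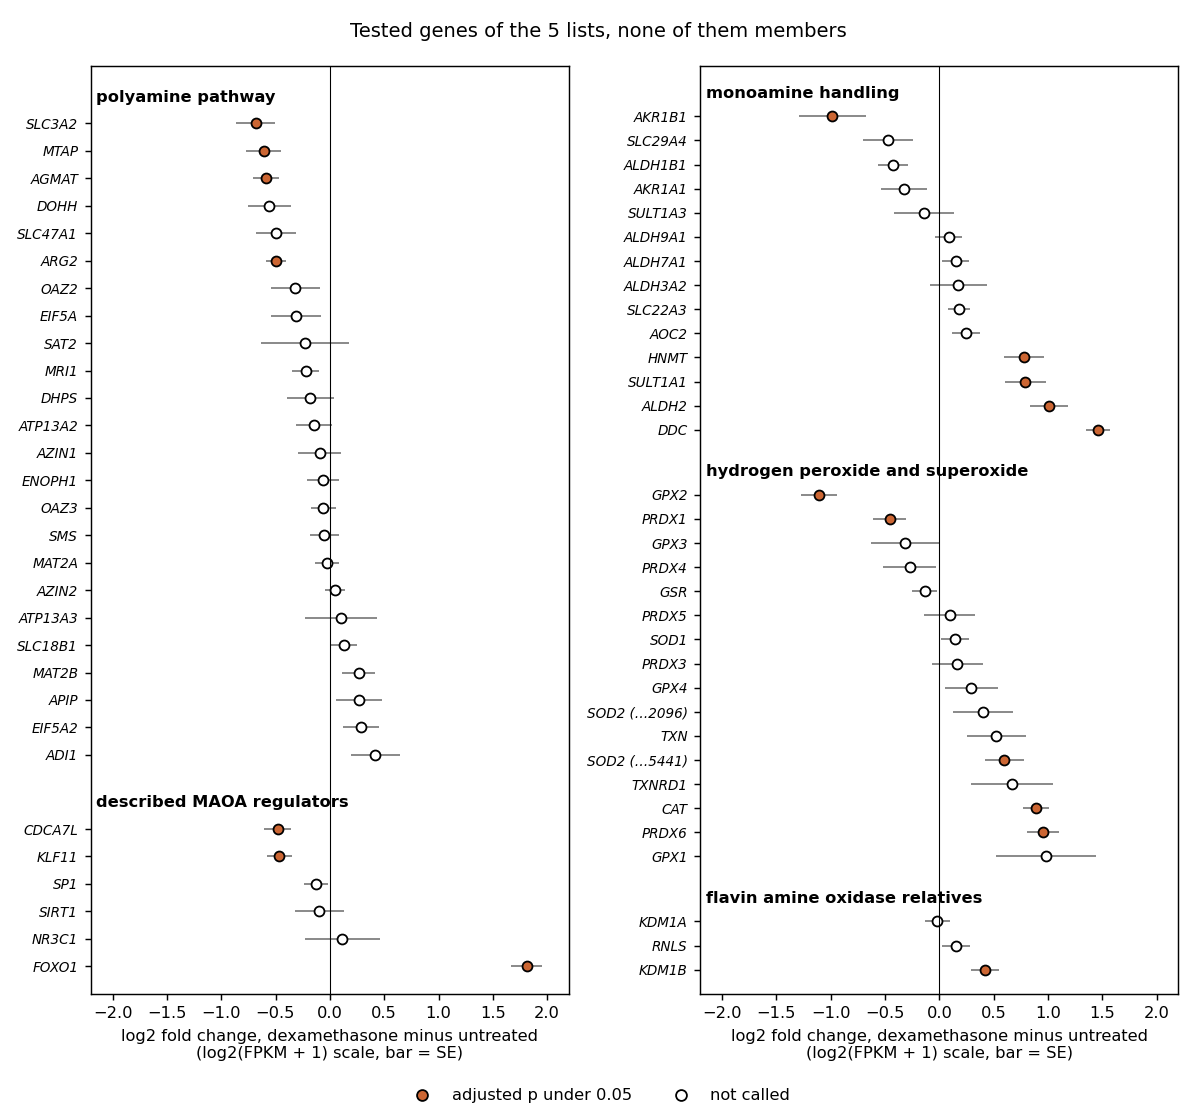
log2 fold change (dexamethasone minus untreated, log2(FPKM + 1) scale) with its SE for tested genes of the 5 lists, apart from genes not reported here; filled points passed an adjusted p of 0.05. FOXO1 at 1.81 and DDC at 1.46 lie farthest to the right, and GPX2 at -1.11 and AKR1B1 at -0.98 farthest to the left.

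Reads in stretches shared by several annotated genes may have been split or dropped, and neither that rule nor the use of strand is given in the sources used here, which makes such genes uncertain. Among the members, OAZ1, ODC1, PAOX and SAT1 overlap a gene on the same strand in GENCODE v44, and OAZ1 also overlaps JSRP1 on the other strand. Of the called genes, ALDH2, FOXO1, MTAP and SULT1A1 overlap a gene on the same strand. AGMAT, ARG2, CDCA7L, DDC, GPX2, KLF11, PRDX1 and PRDX6 overlap only a gene on the other strand. Both SOD2 identifiers lie in the same stretch of chromosome 6 and are missing from GENCODE v44, so their values are uncertain too.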

How the data were processed

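Total RNA of 8 A549 wells (4 untreated, 4 with dexamethasone) was sequenced after ribosomal RNA removal. Per the series' design text and the submitters' processing notes, the authors trimmed reads with Cutadapt 3.4, aligned them to GRCh38 with STAR 2.7.9a and quantified genes with featureCounts (Subread 2.0.3). Which annotation release and strand setting applied is not given in the sources used here. The deposited values are called counts but are not whole numbers. They were read as FPKM from the values, since the deposited sums differ between libraries (338989 to 373855) and FPKM times canonical transcript length in kilobases gave totals of 804692 to 914923, as fits a value per length.

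Low FPKM of genes with 1 annotated transcript rise in steps, which put the depth at 25030000 to 28410000 fragments per library, below the read pairs the labels state. Of these low values, 32.2% to 41.8% lay within 0.1 of a whole number, where chance gives 20%, so whole fragments could not be rebuilt and count models were not used. The search for the depth kept to a preset range, and the double of the best depth also scores, so the true depth may be higher. Fragment numbers per gene are therefore approximate and cover counting error only.

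Scaling between libraries used trimmed M values (0.3 of M, 0.05 of A), and limma 3.58.1 (R 4.3.3) was fitted to log2(FPKM + 1) (trend and robust, group as the only term, two-sided, Benjamini-Hochberg over 12161 genes with 0.5 FPKM in at least 4 libraries, called under 0.05). Levels are as deposited and log2 fold changes are from the scaled fit. On simulated data, 36.5% of 200 genes changed 2-fold and 86.0% of 200 changed 4-fold were recovered, with 5 and 11 false calls. These simulations changed only 200 genes and used the spread of the untreated libraries, while 3280 genes passed in the data. The adjusted cut was thus stricter there, so the shares do not measure the power of the test on the data. The genes named are the members, up to 6 called genes of each list by smallest p, the check genes and the 5 genes nearest to MAOA, with a few others marked in the text. The members and lists were chosen with earlier results of these data known. Genes were kept apart by identifier. A few list genes enter the counts but are not reported here by name or value. Where a library was left out, the filter asked for 3 libraries.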

Additional observations from a re-analysis of the deposited data

Results flagged for a closer look

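For named genes and ratios between members, the gap from the extreme library to its nearest neighbour was divided by the range of its 4 libraries. This was done for 80 groups of values, and 11 had a library apart by Dixon's 95% limit. Chance alone flags 1 in 20, which is 4 here. Untreated replicate 5 accounted for 4 and dexamethasone replicate 5 for 2.

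Among members, SAT1 in untreated replicate 5 (27.1 FPKM) lay below the others (54.2 to 59.5), and SRM over AMD1 in dexamethasone replicate 5 (7.51) lay above them (2.92 to 3.56). In untreated replicate 5, SLC3A2 (287 FPKM) and AKR1B1 (2000 FPKM, others 1050 to 1090) were high and CAT (8.49 FPKM) was low. CAT was also low in dexamethasone replicate 5, at 19.9 FPKM against 24.4 to 24.6.

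The other libraries that stood apart were dexamethasone replicate 1 for ALDH2 (27.0 FPKM, others 15.4 to 16.1) and untreated replicate 4 for SULT1A1 (1.09 FPKM) and for SOD2 ENSG00000285441 (1.21 FPKM). Untreated replicate 1 stood apart for SCNN1B (0.316 FPKM) and SAA1 (0.193 FPKM).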

How the results depend on the processing

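Under 15 alternatives, MAOA and SAT1 stayed higher and SMOX lower in 45 of 45 values. The groups did not overlap for these genes, so leaving out libraries could hardly change their direction. Nothing is read from this count. In each alternative 3 members or more were called. Without the filter MAOB was called as well. Of 388 values for 26 other named genes, 348 kept their direction and call and 40 lost the call, and none reversed. ARG2 and HNMT had no value with a filter of 1 FPKM. Replicate numbers were not taken to pair the libraries, because the correlation for number 3 was under 0.1: deviations of same-numbered libraries correlated at 0.291, 0.0659, 0.314 and 0.713 for numbers 1, 3, 4 and 5, and not every library correlated best with its own number. With the replicate number as a block, 5769 genes, 9 of the polyamine list and 5 members (SRM and OAZ1 added) were called. Without both libraries numbered 5 these counts were 5513, 8 and 5, with 8 for the peroxide list, which was also 8 with the GC trend removed. The flavin oxidase relatives gave 2 calls without the filter and 0 without scaling. Leaving out 1 library at a time gave 2285 to 3836 genes, 2 to 6 of the polyamine list, 3 to 5 of the peroxide list, 0 to 1 of the flavin oxidase relatives and 3 members each time. The causes were not tested. Depth limits MAOB most, at an estimated 1 to 30 fragments per library. In simulation 0% of 200 genes changed 1.5-fold were recovered. No other genes were changed there, while 3280 passed in the data, so this share does not measure the power of the test on the data.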
